A study of Mus musculus with 4 samples.

Results

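Some Gata4 peaks away from gene starts stood close together in runs. Whether such peaks were spread evenly along the genome was not tested. A run was defined as 3 or more distal peaks of which no neighbours were more than 5 kb apart, where a distal peak is one with no gene start of the deposited list within 1 kb. The list of wild-type (WT) mesoderm cells held 513 such runs, made of 1769 of its 15069 distal peaks, and the list of mutant (DKO) mesoderm cells held 406 runs, made of 1459 of its 11934 distal peaks. The runs were thus chosen by the called positions and their distance to gene starts, so the number, size and spacing of runs are given as description. All peaks of the lists numbered 20410 and 22733, of which 5341 WT and 10799 DKO peaks were set aside as near a gene start.

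The cells were ES cell clones on the J1, 129-background line, either WT or Dnmt3a-/-Dnmt3b-/- (DKO), the latter lacking both de novo DNA methyltransferases. The cells of all 4 libraries carried Gata4GR, a fusion of Gata4 with the hormone-binding part of the glucocorticoid receptor that was driven by the ubiquitous CAG promoter and that dexamethasone (Dex) activates. The WT Flk1(+) library came from the clone labelled J1G4.2, which the paper calls J1G4.211, and the DKO Flk1(+) library from the clone labelled 16G4.3, in each case from cells grown on OP9 stroma to day 4.5, exposed to 100 nM Dex for 3 hr and sorted with magnetic beads for Flk1, a receptor on mesoderm cells. The backgrounds were undifferentiated WT and DKO ES cells that also carried Gata4GR but received no Dex, and whose labels name no clone, and chromatin was precipitated with a mixture of 3 Gata4 antibodies. With 1 library per condition there was no replicate and no test between genotypes, a difference between the genotypes cannot be told apart from one between clones or libraries, and the 95% Wilson intervals given with shares cover counting error only. The lists do not give the number of reads behind a peak, and according to the study's methods the DKO Flk1(+) library had more mapped reads than the WT one, which cannot be told apart from the genotype.

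Gata4 is a zinc-finger transcription factor of the heart, the endoderm and the early mesoderm that binds the short sequence WGATAR, in which W is A or T and R is A or G. Regions where many binding sites of a factor lie close together are often enhancers of genes that matter to a cell type. Methylated CpGs are common in the vertebrate genome outside CpG-rich stretches, and Dnmt3a and Dnmt3b set that methylation as ES cells differentiate.

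The sequences below are the 61 bases centred on the best-ranked peak of some of the largest runs, as deposited for mm9 and read on the plus strand, and they show what the peaks in runs looked like at their centre. Capitals mark WGATAA or its complement TTATCW. Where a gene is given for WT and for DKO, its runs in both lists overlap.
Zfpm1 intron 1, WT, chr8:124808706-124808766: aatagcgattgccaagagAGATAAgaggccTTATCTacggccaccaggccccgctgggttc
Zfpm1 intron 1, DKO, chr8:124808713-124808773: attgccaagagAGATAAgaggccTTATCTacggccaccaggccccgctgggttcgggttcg
Ddc intron 7, WT, chr11:11740805-11740865: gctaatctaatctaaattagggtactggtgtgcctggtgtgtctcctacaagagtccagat
Ddc intron 7, DKO, chr11:11740833-11740893: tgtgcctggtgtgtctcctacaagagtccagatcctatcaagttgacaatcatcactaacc
Smad1 intron 1, WT, chr8:81907001-81907061: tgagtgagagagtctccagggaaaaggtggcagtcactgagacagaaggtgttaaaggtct
Smad1 intron 1, DKO, chr8:81906982-81907042: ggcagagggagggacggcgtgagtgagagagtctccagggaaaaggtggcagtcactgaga
Sh3pxd2a, WT, chr19:47503139-47503199: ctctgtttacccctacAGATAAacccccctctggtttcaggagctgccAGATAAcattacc
Sh3pxd2a, DKO, chr19:47502935-47502995: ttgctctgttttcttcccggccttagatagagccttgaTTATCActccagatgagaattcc
Trp73 intron 6, WT, chr4:153440333-153440393: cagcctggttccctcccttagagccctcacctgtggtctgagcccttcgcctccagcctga
In *Zfpm1* the same facing pair of motifs stood at the centre in both lists. At *Ddc* and *Smad1* WGATAA was missing from the 61 bases, and the deposited window around each of these peaks, 250 bases to either side, held 1 match. The *Trp73* window of the WT list held no match. In the *Ddc* sequence of the DKO list CTATCA, the complement of TGATAG, fits the wider WGATAR and is not marked. The same is true of AGATAG in the *Sh3pxd2a* sequence of the DKO list.
The next set shows the best-ranked peaks of other large runs, in which the motif was present near *Ccr7*, near *Cirbp* and in *St7* but absent near *Mid1*.
Near Ccr7, WT, chr11:98987992-98988052: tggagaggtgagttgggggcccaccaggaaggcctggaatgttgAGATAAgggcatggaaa
St7 intron 13, DKO, chr6:17888628-17888688: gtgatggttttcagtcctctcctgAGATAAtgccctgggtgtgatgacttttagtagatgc
Near Cirbp, DKO, chr10:79627842-79627902: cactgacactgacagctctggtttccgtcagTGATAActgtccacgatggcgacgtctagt
Near Mid1, DKO, chrX:166429110-166429170: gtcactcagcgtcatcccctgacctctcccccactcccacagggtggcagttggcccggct

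Most runs were small, and the largest differed in kind. Runs of exactly 3 peaks made up 363 of 513 in WT (70.8%, interval 66.7% to 74.5%) and 277 of 406 in DKO (68.2%, interval 63.5% to 72.6%). Runs of 6 or more peaks numbered 17 in WT and 24 in DKO, and the largest held 11 peaks in WT and 20 in DKO. The median run spanned 3711 bp in WT, from 281 to 28514 bp, and 2650 bp in DKO, from 269 to 28589 bp. Neighbouring peaks stood a median of 980.5 bp apart in WT runs and 664 bp apart in DKO runs, and 36.1% of WT gaps and 42.2% of DKO gaps were 500 bp or less. The widest gap inside a run was 5000 bp in WT and 4979 bp in DKO, and the narrowest gap that ended a run was 5001 bp and 5003 bp. The smallest distance from a member to a gene start of the list was 1027 bp in WT and 1001 bp in DKO, while peaks up to 1000 bp away had been set aside.

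Many neighbours stood so close that their windows overlapped. When peaks up to 500 bp apart were counted as 1 site, 259 WT runs (50.5%, interval 46.2% to 54.8%) and 191 DKO runs (47.0%, interval 42.2% to 51.9%) still held 3 or more sites, and 67 WT and 73 DKO runs came down to 1 site. The word distal also rested on the gene starts of the lists. Of peaks in runs, 75 in WT (4.24%) and 196 in DKO (13.4%) lay within 1 kb of a protein-coding start of the GENCODE annotation. Among other distal peaks the shares were 4.43% in WT and 8.01% in DKO. A peak that had been set aside as near a gene start lay within 5 kb of 35 WT runs (6.82%) and 71 DKO runs (17.5%). Counted per peak, this held for 5.31% of WT and 15.1% of DKO peaks in runs. Among other distal peaks it held for 3.53% and 7.89%. Without the peaks near GENCODE starts, 475 WT and 336 DKO runs remained.

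Which list had more runs depended on the distal peaks that were counted. Peaks in runs were 11.7% of the WT distal peaks (interval 11.2% to 12.3%) and 12.2% of the DKO distal peaks (interval 11.7% to 12.8%). When the WT list was limited to its 11934 best-ranked distal peaks, the number in the DKO list, WT had 310 runs with 1044 peaks, fewer than the 406 runs with 1459 peaks in DKO. When no peak was set aside near gene starts, WT had 749 runs and DKO 1477.

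**Figure D1:**
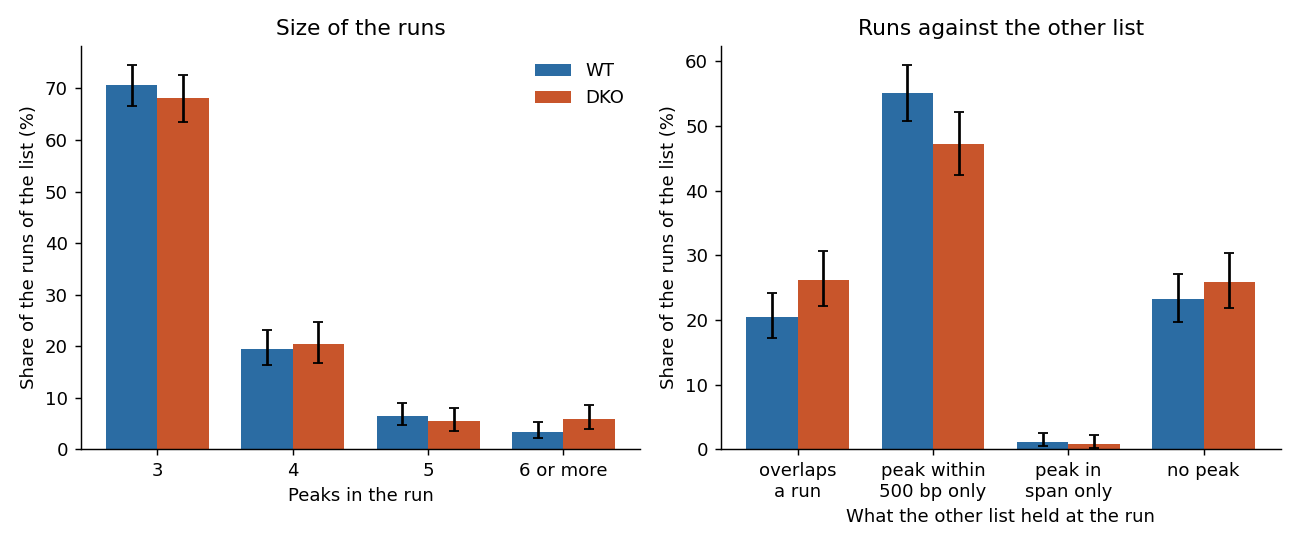
Left, share of the runs of each list (%) by the number of peaks in the run; right, share by what the other list held at the run. Bars are WT (blue) and DKO (orange), with 95% Wilson intervals for counting error; 70.8% of WT and 68.2% of DKO runs held 3 peaks, and 20.5% and 26.1% overlapped a run of the other list.

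Peaks in runs had a counterpart in the other list more often than distal peaks at large. A DKO peak lay within 500 bp of 885 of the 1769 WT peaks in runs (50.03%, interval 47.7% to 52.4%), against 35.6% of all WT distal peaks. A WT peak lay within 500 bp of 724 of the 1459 DKO peaks in runs (49.6%, interval 47.1% to 52.2%), against 44.7% of all DKO distal peaks. In both lists the matched peaks of the runs were the taller ones. Their median height was 11.1 against 6.84 for unmatched peaks in WT runs, and 7.57 against 6.34 in DKO runs. The same held among other distal peaks, with 11.1 against 6.66 in WT and 7.19 against 6.01 in DKO. Height is the level of the authors' read profile at the peak. Neighbours in a run can share the same counterpart, since many lie up to 500 bp apart. The match was less exact inside runs, where 57.7% of the matched WT peaks lay within 50 bp of their DKO counterpart (interval 54.5% to 60.95%), than among other distal peaks, where 74.6% did (interval 73.3% to 75.9%). For DKO the shares were 52.1% (interval 48.4% to 55.7%) and 75.4% (interval 74.1% to 76.6%).

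As whole runs, most had no overlapping run in the other list. Of the WT runs, 105 overlapped a DKO run (20.5%, interval 17.2% to 24.2%), and of the DKO runs, 106 overlapped a WT run (26.1%, interval 22.1% to 30.6%), which made 106 pairs. Another 283 WT runs (55.2%) and 192 DKO runs (47.3%) overlapped no run but had a peak of the other list within 500 bp of a member, and 6 WT and 3 DKO runs had an other-list peak only elsewhere in their span. No peak of the other list lay in or within 500 bp of 119 WT runs (23.2%, interval 19.8% to 27.0%) and 105 DKO runs (25.9%, interval 21.8% to 30.3%). Large runs were shared more often than small ones in these libraries. Of the runs of 6 or more peaks, 13 of 17 in WT (76.5%, interval 52.7% to 90.4%) and 13 of 24 in DKO (54.2%, interval 35.1% to 72.1%) overlapped a run of the other list, against 15.4% and 20.6% of the runs of 3 peaks. A long run has more room to overlap another, and the part of this in the difference was not tested.

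In the 106 pairs the number of peaks was the same in 41, larger in WT in 32 and larger in DKO in 33. The tallest peak stood at the same place in many of them, within 50 bp in 53 pairs and within 500 bp in 67. The tallest WT peak had the larger height in 97 pairs and the tallest DKO peak in 9, with medians of 17.3 and 11.0. How the heights were scaled is not given in the sources used here, so they are given side by side only. For that reason this count and these medians cannot compare binding between the genotypes. Across the pairs, the heights of the tallest peaks in both lists had a Spearman rho of 0.64, and the summed heights had one of 0.43, given as a description of 106 places that share their libraries.

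**Figure D2:**
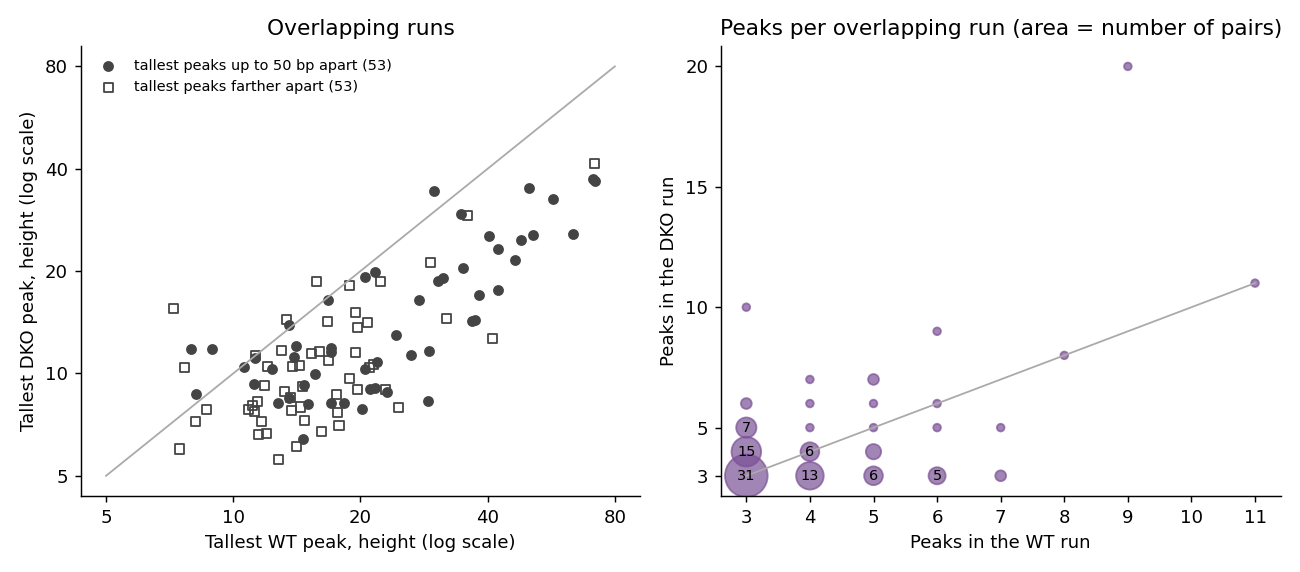
Left, height of the tallest DKO peak against the tallest WT peak of the 106 pairs of overlapping runs (log scales, grey line at equal height), with filled points where these peaks lay up to 50 bp apart; right, peaks per run in the same pairs, with the area of a point for the number of pairs. In 97 pairs the point lies below the line, which cannot compare binding because the scaling of the heights is not given. In 31 pairs both lists had 3 peaks.

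The windows of peaks in runs held the Gata motif less often than those of other distal peaks. WGATAA occurred on either strand in 1267 of the 1769 WT windows in runs (71.6%, interval 69.5% to 73.7%) and in 76.8% of the other WT distal windows (interval 76.1% to 77.6%). In DKO it occurred in 679 of 1459 windows in runs (46.5%, interval 44.0% to 49.1%) and in 61.5% of the others (interval 60.6% to 62.4%). Windows of the same length placed midway between run neighbours more than 1002 bp apart held the motif in 37.7% of 621 cases in WT (interval 34.0% to 41.6%) and in 30.2% of 421 in DKO (interval 26.0% to 34.7%), less than the peaks themselves. With only the best-ranked peak of each run, the share in WT was 78.9%, slightly above that of the other distal peaks, and in DKO it was 58.6%, still below. The wider WGATAR was in 82.8% of the WT and 60.2% of the DKO windows in runs, and in 85.6% and 71.3% of the others. Throughout, the motif means WGATAA, so a window without it can still hold WGATAR.

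DKO peaks without a WT counterpart held the motif least often, and peaks in runs held it less often than other distal peaks with and without a counterpart. Of the DKO peaks in runs, the motif was in 58.3% of those with a WT peak within 500 bp (interval 54.7% to 61.8%) and in 35.0% of those without (interval 31.6% to 38.5%). Among other DKO distal peaks these shares were 79.3% (interval 78.1% to 80.5%) and 47.5% (interval 46.2% to 48.8%). In WT runs they were 74.4% (interval 71.4% to 77.1%) and 68.9% (interval 65.8% to 71.9%), and among other WT distal peaks 78.6% (interval 77.4% to 79.8%) and 75.9% (interval 75.0% to 76.8%).

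DKO runs were also richer in CpGs. Windows with 20 or more CpGs made up 27.4% of the DKO peaks in runs (interval 25.2% to 29.8%) and 13.4% of the other DKO distal peaks (interval 12.8% to 14.1%). In WT the shares were 7.18% (interval 6.07% to 8.48%) and 5.62% (interval 5.25% to 6.03%). The median number of CpGs per window was 10 in DKO runs and 7 in other DKO distal peaks, and 7 and 6 in WT. Windows midway between run neighbours more than 1002 bp apart had a median of 6 CpGs in DKO and 5 in WT. Closer neighbours gave no such window. Nearness to promoters moved with this. Without peaks near GENCODE starts, the median in DKO runs was 9, and the motif was in 51.6% of the DKO windows in runs and in 63.8% of the others.

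**Figure D3:**
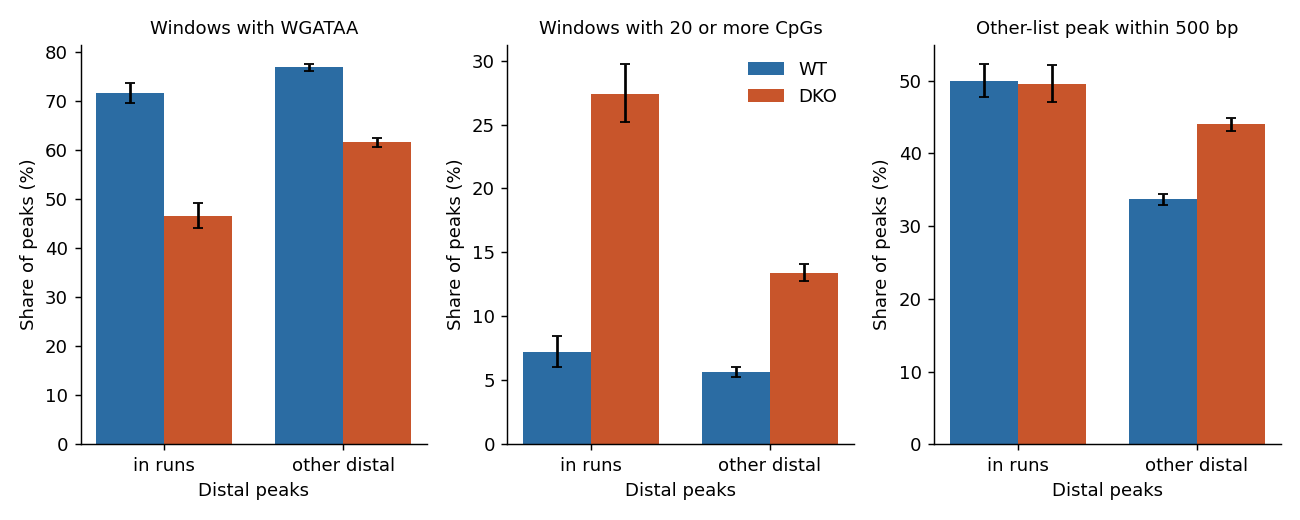
Share of peaks (%) in runs and among other distal peaks whose window held WGATAA (left) or 20 or more CpGs (middle), or that had a peak of the other list within 500 bp (right), in WT (blue) and DKO (orange), with 95% Wilson intervals for counting error. The motif was in 46.5% of DKO windows in runs and in 61.5% of other DKO distal windows, and 27.4% and 13.4% held 20 or more CpGs.

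The runs ranged from those with the motif in every peak to those with none. In 204 WT runs (39.8%) and 82 DKO runs (20.2%) every peak held the motif, and in 26 WT runs (5.07%, interval 3.48% to 7.32%) and 92 DKO runs (22.7%, interval 18.9% to 27.0%) no peak did. Runs without the motif had a median window CpG count of 16.5 in WT and 27 in DKO, against 6 in both lists where every peak held it. A promoter peak lay within 5 kb of 5 of the 26 WT and 22 of the 92 DKO runs without the motif, and of 7 of the 204 WT and 3 of the 82 DKO runs with the motif in every peak. The runs without the motif had tallest peaks of a lower median height, 11.1 against 14.7 in WT and 8.83 against 9.97 in DKO.

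Peaks in runs were slightly taller than other distal peaks, with a median height of 7.96 against 7.46 in WT and of 6.82 against 6.39 in DKO. Their enrichment, the ratio of this height to the height in ES cells of the same genotype, had a median of 5.02 against 5.00 in WT and of 4.79 against 5.05 in DKO. The height in ES cells had a median of 1.61 against 1.54 in WT and of 1.45 against 1.33 in DKO. In runs of 3 the tallest peak held a median of 45.7% of the summed height in WT and of 41.2% in DKO, so that the other peaks together usually held more. The tallest peaks of the runs held the motif in 80.7% of WT runs and 56.4% of DKO runs, and the other peaks of the runs held it in 67.9% and 42.7%. Peaks of runs with no peak of the other list held the motif in 69.2% of cases in WT (interval 64.4% to 73.6%) and in 35.6% in DKO (interval 30.7% to 40.9%).

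*Zfpm1*, which encodes FOG1, a cofactor that binds Gata factors directly, had more than 1 run in each list. Among them was the WT run with the largest summed height, whereas in DKO the run at *Trp73* had the largest. In its intron 1 the WT run had 8 peaks between chr8:124807108-124810937, with heights of 6.99, 7.10, 24.2, 17.7, 47.9, 5.19, 10.8 and 9.76 in order of position. The DKO run had 8 peaks between chr8:124807899-124820636, with heights of 11.1, 24.7, 5.55, 5.19, 5.26, 7.04, 6.86 and 14.4. The tallest peaks lay 7 bp apart, and 4 of the DKO peaks lay within 30 bp of a WT peak, whereas the last 4 extended the run toward the 3′ end of the gene. Among these last 4, the peak of 7.04 had a WT peak 161 bp away, outside the WT run. A second WT run in introns 3 and 4, chr8:124838968-124850525, had 6 peaks with heights of 9.996, 5.59, 58.8, 71.8, 55.0 and 6.16, which sum to 207.3. The DKO run there, chr8:124845760-124860626, had 9 peaks with heights of 25.9, 36.8, 7.23, 19.5, 5.27, 6.10, 5.07, 5.32 and 12.6, and a further DKO run of 3 peaks upstream of it reached 41.3. The 3 tall peaks of introns 3 and 4 lay 16 to 22 bp apart between the lists and all held the motif. In WT ES cells without Dex the heights at these 3 peaks were 6.32, 10.6 and 9.40, well above the median of 1.61 for WT peaks in runs, and in DKO ES cells they were 1.46, 2.76 and 0.995.

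*Ddc*, which encodes the aromatic amino acid decarboxylase that makes dopamine and serotonin, had the longest run, with 11 peaks in each list from intron 7 to intron 13. The WT run, chr11:11715961-11744474, had heights of 14.4, 8.22, 7.66, 5.41, 11.0, 13.7, 8.41, 29.9, 26.2, 11.6 and 9.62. The DKO run, chr11:11715958-11744546, had heights of 7.46, 7.55, 5.74, 6.21, 10.9, 14.1, 6.63, 34.4, 22.8, 11.9 and 13.0. In 9 places the peaks of both lists lay within 83 bp of each other, and 8 of the 11 windows in each list held WGATAA. The spacing was wide here, with 11 merged sites in WT and 10 in DKO.

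*Smad1*, a transducer of BMP signals, had 6 peaks in intron 1 in each list. The WT run, chr8:81899527-81907031, had heights of 5.72, 7.82, 5.27, 8.33, 11.3 and 42.4, and the DKO run, chr8:81899488-81910137, had 7.65, 7.58, 5.02, 5.77, 17.6 and 7.15. The tallest peaks lay 19 bp apart. *St7* had 6 WT peaks with heights up to 31.4 and 5 DKO peaks with heights up to 19.0, every one with the motif and every DKO peak within 52 bp of a WT peak.

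*Trp73*, which encodes a p53 family transcription factor, had a run of another kind. The DKO run had the most peaks of any, 20 in chr4:153438082-153445772 from intron 4 to exon 9, with heights from 5.55 to 15.5, and the WT run there had 9 peaks with heights from 5.20 to 7.22. No WT window and 4 of the 20 DKO windows held WGATAA. Peaks up to 500 bp apart left only 4 separate sites in DKO and 8 in WT. All 9 WT peaks and 16 of the 20 DKO peaks had a counterpart within 500 bp, but the tallest peaks lay 1192 bp apart. The ES heights at these peaks had a median of 1.51 in WT and 1.13 in DKO, against 1.61 and 1.45 for all peaks in runs.

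**Figure D4:**
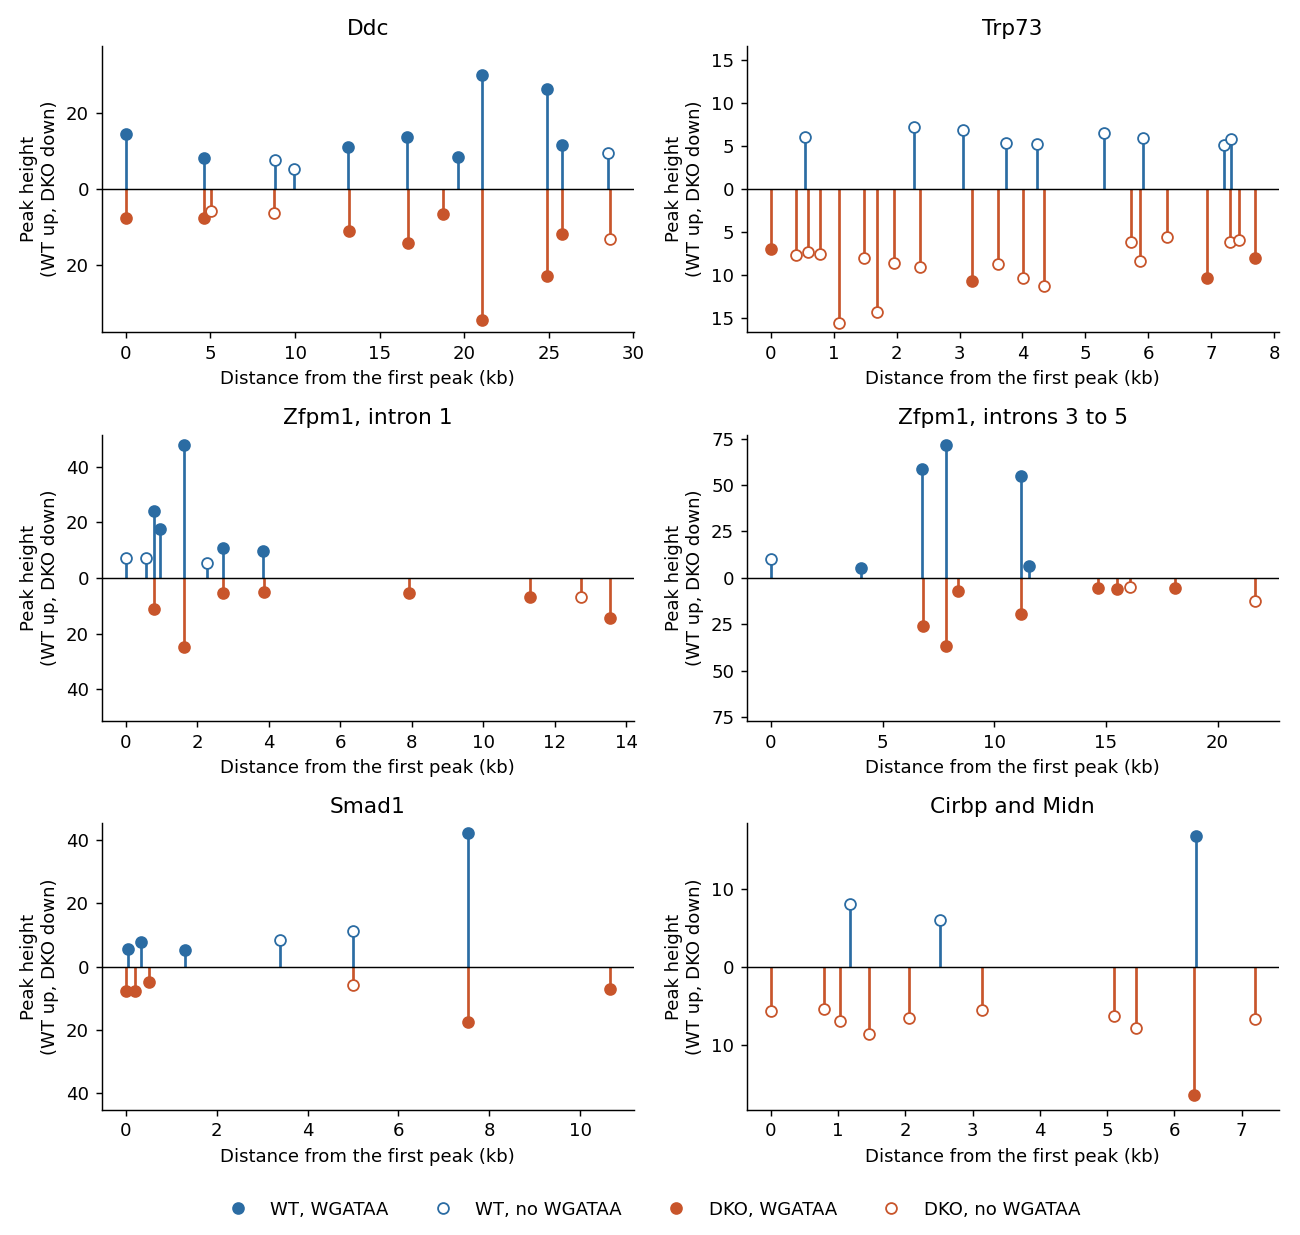
Peaks of 6 pairs of overlapping runs by distance from the first peak (kb), with peak height upward for WT (blue) and downward for DKO (orange) and filled points where the window held WGATAA. The tallest peaks face each other at Ddc, Smad1, Cirbp and in both Zfpm1 panels, while at Trp73 20 DKO peaks stand against 9 WT peaks and most points are open.

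Large runs with few motifs or none occurred in both lists. Near *Cxxc5*, which encodes a zinc-finger protein that binds unmethylated CpGs, 7 WT peaks had heights of 5.08, 8.75, 6.99, 9.90, 11.5, 5.36 and 10.2, no motif and a DKO peak within 500 bp in 4 cases, and the run overlapped a DKO run. Near and in *Mid1*, which encodes a microtubule-bound ubiquitin ligase and lies at the pseudoautosomal boundary of the X chromosome in laboratory mice, 10 DKO peaks in chrX:166425009-166435778 had heights from 5.00 to 13.2, no motif and a WT peak within 500 bp in 2 cases. Near *Zswim4*, 9 DKO peaks had heights from 5.17 to 15.8 and no motif. Between *Cirbp*, which encodes a cold-induced RNA-binding protein, and *Midn*, 10 DKO peaks had heights from 5.40 to 16.4 and only the tallest held the motif, and the 3 WT peaks there included one of 16.7 at 19 bp from it. At *Junb*, an AP-1 factor, 6 DKO peaks had a median of 27 CpGs per window, no motif, no WT peak within 500 bp and 4 promoter peaks within 5 kb. At *Gm7461*, 6 DKO peaks in chr8:4677416-4678788 merged into 1 site with a median of 36 CpGs per window, no motif and heights from 7.31 to 16.3, and the nearest WT peak was 95199 bp away. Peaks of this run lay 29, 485 and 683 bp from a GENCODE start of the gene, in exon 1.

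The motif was more frequent in other large runs. Near *Ccr7*, a chemokine receptor gene, 7 WT peaks had heights of 5.81, 20.6, 15.8, 6.93, 9.49, 6.02 and 8.65, 5 of them with the motif and 4 with a DKO peak within 500 bp. Far from *Pkdcc*, which encodes a secreted kinase, 7 WT peaks up to 11.3 and 5 DKO peaks up to 11.3 overlapped, 100925 bp from the gene in WT, with the motif in 5 and 4 of them. In intron 1 of *Sh3pxd2a*, a scaffold gene of cell protrusions, 5 WT peaks had heights of 7.05, 8.98, 10.3, 8.91 and 13.0 and 7 DKO peaks had heights of 5.76, 7.01, 11.7, 6.90, 9.40, 8.43 and 10.9. All 5 WT peaks and 6 of the 7 DKO peaks there had a counterpart within 500 bp, and the motif was in 4 of the WT and 3 of the DKO windows. Next to *Krt18*, a keratin gene, 7 DKO peaks had heights from 5.22 to 17.1, of which the 2 tallest lay 23 and 2 bp from a WT peak, and 4 windows, those of the 2 tallest among them, held the motif.

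The tallest peak of any run stood in a WT run of 3 peaks. This run, 65277 bp from *Lhx1*, a homeobox gene, had heights of 5.18, 26.0 and 91.2, all with the motif. In WT ES cells without Dex the heights at these peaks were 1.36, 7.58 and 24.0, so that the enrichment of the tallest was 3.81. A run 51780 bp from *Cdk15* had heights of 5.66, 71.0 and 38.1 with ES heights of 1.24, 9.56 and 2.86, and it overlapped a DKO run.

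Several runs could lie near the same gene. Within 50 kb of *Dnahc2*, a dynein gene beside the histone demethylase gene *Kdm6b*, there were 5 WT runs, with tallest peaks of 12.0, 13.3, 63.8, 27.9 and 8.82. In DKO 3 runs lay within 50 kb of it, with tallest peaks of 10.5, 14.4 and 25.7. The runs nearest *Kdm6b*, in its intron 1, were rich in CpGs, with a median of 22.5 per window in WT and of 27 in DKO, and the motif was in none of 4 WT and 1 of 7 DKO windows. The runs farther on, within *Dnahc2*, had medians of 7.5 and the motif in all 4 WT windows and in 3 of 4 DKO windows. Genes with 3 or more runs within 50 kb numbered 8 in WT and 18 in DKO, many of them neighbours that share the same runs, out of 798 and 873 genes with at least 1.

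The runs of most peaks with no peak of the other list within 500 bp were smaller. In WT they lay in *Fam82a2* (6 peaks, tallest 13.4), *Pmp22* (6 peaks, tallest 10.0), *Slit1* (5 peaks, tallest 8.69) and *Pax7* (5 peaks, tallest 7.58), and the fifth, of 4 peaks with a tallest of 19.7, lay over 50 kb from any coding gene. *Pmp22* encodes a myelin protein, *Slit1* an axon guidance ligand and *Pax7* a factor of muscle stem cells. In DKO they lay in *Gm7461*, *Junb*, *Nfic* (6 peaks, tallest 8.89), at *Sirt4* (4 peaks, tallest 25.6) and next to *Ssbp4* (4 peaks, tallest 13.7). A *Sirt4* peak lay 179 bp and a *Pmp22* peak 520 bp from a GENCODE start of the gene. The motif was in 14 of the 26 WT peaks of these runs and in 5 of the 26 DKO peaks.

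Genes of 10 lists chosen for the tissue and the treatment were counted near runs. The lists were picked with earlier results of these data known, so their shares beside those of all genes are description only. Of the 154 genes, 21 lay within 50 kb of a WT run (13.6%, interval 9.10% to 19.9%) and 21 of a DKO run, against 3.59% of all 22206 protein-coding genes for WT and 3.93% for DKO. The length of the genes and their neighbourhoods differ from those of all genes, and their part in this was not tested. The counts per list are small, from 0 to 4 genes each.

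Of 16 cardiac transcription regulators, 4 lay near a WT run and 3 near a DKO run. *Tbx2*, a T-box factor of the heart and limb, had a WT run of 6 peaks in and beside *Bcas3* with heights of 41.1, 5.04, 21.3, 11.2, 9.38 and 9.41, all with the motif, and an overlapping DKO run of 3 peaks with a tallest of 12.7. *Tbx5*, a T-box factor of the heart, had a WT run of 4 peaks 38008 bp away with a tallest of 16.6 and no DKO counterpart, and a DKO run of 3 peaks within the gene with a tallest of 14.3, each with a WT peak within 500 bp. *Myocd*, a coactivator of serum response factor, had a WT run at 25916 bp with a tallest of 17.9 and a DKO run elsewhere, within the gene, with a tallest of 10.1, and all peaks of both had a counterpart in the other list. *Hand1*, a factor of the heart and the placenta, had 2 WT runs with tallest peaks of 8.01 and 43.2 and no DKO run within 50 kb, but DKO peaks lay 24 and 8 bp from the WT peaks of 43.2 and 18.5. These WT runs lay 791 and 31193 bp from *Hand1*.

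Of 17 blood-vessel and blood genes, 4 lay near a WT run and 3 near a DKO run. *Kdr*, which encodes Flk1 itself, had 5 WT peaks 26436 bp away with heights up to 20.6 and the motif in all 5, of which 1 had a DKO peak within 500 bp. *Erg*, an ETS factor of blood vessels, had a run within the gene in both lists, with 3 peaks up to 20.8 in WT and 4 up to 14.1 in DKO, all with the motif and all matched. *Tal1* and *Runx1*, regulators of blood formation, had WT runs with tallest peaks of 14.7 and 6.61, of which 2 and 0 peaks had a DKO counterpart, and *Ets1* and *Lyl1* had DKO runs with tallest peaks of 11.3 and 10.3, of which 2 and 1 had a WT counterpart. The *Lyl1* run lay 36046 bp from that gene, and the list names *Ier2* for its peaks. The *Tal1* peak of 14.7 lay 336 bp from a GENCODE start of that gene, with 56 CpGs in its window.

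Of 22 genes of the BMP pathway and the Id family, 4 lay near a run in each list. *Smad1* is described above. *Smad6*, an inhibitor of the pathway, had 3 WT and 2 DKO runs, of which the run 23267 bp away had 5 WT peaks up to 30.4 and overlapped 4 DKO peaks up to 18.7. *Bmp4*, a ligand, and *Msx1*, a target gene, had WT runs with tallest peaks of 6.87 and 12.4 and 0 and 2 matched peaks, and the target genes *Id1* and *Id3* had DKO runs with tallest peaks of 8.94 and 10.4 and 3 and 1 matched peaks. The *Bmp4* run lay 44844 bp from its gene and the *Id1* run 28562 bp from its gene, within *H13*. Of 18 contractile genes, *Ttn*, which encodes titin, had a run in both lists at overlapping positions, with tallest peaks of 17.5 and 8.65 and the motif in all peaks, and *Tnni1* and *Tnnc1* had DKO runs with 2 and 1 of 3 peaks matched. These DKO runs lay 7848 bp from *Tnni1* and 37687 bp from *Tnnc1*. Of 18 extracellular matrix genes, *Nid1* had overlapping runs with tallest peaks of 13.6 and 13.9, and *Sparc* had a DKO run with 1 of 3 peaks matched. The *Nid1* runs lay 20300 bp from the gene in WT and 20295 bp in DKO.

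Of the 8 Gata and Zfpm genes only *Zfpm1* had a run within 50 kb, in both lists. Of 15 endoderm transcription factors *Eomes* alone had one, with 2 WT runs and a tallest peak of 19.6, which had a DKO peak 14 bp away, and of 16 visceral endoderm and liver genes none had one in either list, at this distance and gap. Of 12 classical targets of the glucocorticoid receptor, whose ligand-binding part the fusion carries, *Per1* and *Dusp1* had overlapping runs in both lists. Near *Dusp1* 3 WT peaks up to 14.7 and 3 DKO peaks up to 9.25 all held the Gata motif. These runs lay 5910 bp from the gene in WT and 6088 bp in DKO, with 3 to 5 CpGs per window. At *Per1*, by contrast, 3 WT peaks up to 19.5 and 5 DKO peaks up to 15.1 held none. There a WT peak lay 88 bp and a DKO peak 79 bp from a GENCODE start of the gene, each with 22 CpGs in its window. *Tat* had a DKO run 34167 bp away with 1 of 3 peaks matched. Of 12 pluripotency genes, *Nanog* had overlapping runs 46636 bp away in WT and 46590 bp away in DKO, inside *Slc2a3*, while *Esrrb* and *Fgf4* had WT runs with 3 of 3 and 2 of 4 peaks matched, and *Tdgf1* had a DKO run with 1 of 3 matched. The *Fgf4* run lay 48533 bp from its gene and the *Tdgf1* run 3190 bp from its gene.

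The runs were spread over all autosomes, with chromosomes 8 and 11 carrying the most for their number of peaks. Of the distal peaks on chromosome 11, 18.8% of WT and 19.2% of DKO peaks lay in runs, and of those on chromosome 8, 17.3% and 21.7%. Chromosome 8 held 10.9% of the WT and 19.5% of the DKO peaks in runs, and 7.42% and 11.0% of the distal peaks. The ES height of distal peaks had a median of 1.84 on chromosome 8, 1.61 on chromosome 11 and 1.52 on all chromosomes but 8 in WT, and of 1.45, 1.56 and 1.33 in DKO, and its part in the number of runs was not tested. Without chromosome 8, 462 WT and 335 DKO runs remained, the shares of runs that overlapped were 18.6% and 25.7%, and the motif was in 71.4% of WT and 45.9% of DKO windows in runs.

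**Figure D5:**
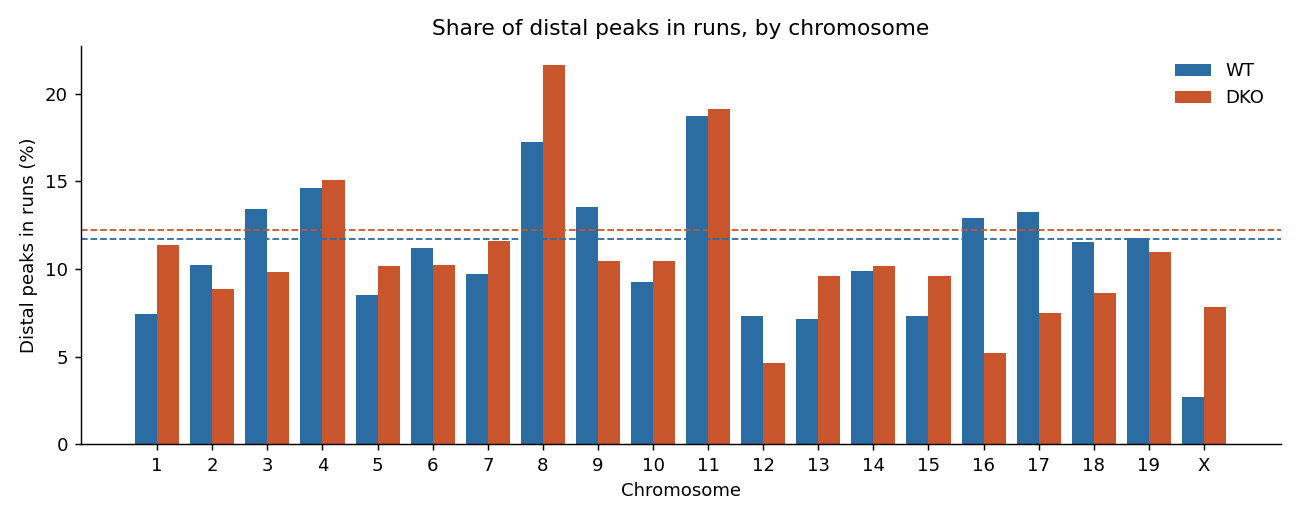
Share of the distal peaks (%) on each chromosome that lay in runs, in WT (blue) and DKO (orange), with dashed lines at the shares over all chromosomes, 11.7% and 12.2%. Chromosome 11 stands highest in WT at 18.8% and chromosome 8 in DKO at 21.7%.

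By annotation, the shares of peaks in introns, in exons and outside genes were near those of other distal peaks. In WT runs 44.5% lay in introns, 2.20% in exons and 53.3% outside protein-coding genes, against 42.2%, 3.13% and 54.7% of other distal peaks. In DKO runs the shares were 44.3%, 7.27% and 48.5%, against 43.0%, 6.94% and 50.1%. A coding gene body was touched by 49.9% of WT runs and 58.6% of DKO runs, and 17.3% and 11.6% lay more than 50 kb from any coding gene.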

How the data were processed

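Gata4 ChIP-seq peaks were taken from 2 deposited lists, 1 for WT and 1 for DKO Flk1(+) cells. The authors called them on mm9 with DNAnexus tools, using the matching ES library as background, a bandwidth of 30, a height of at least 5, a fold over background of at least 3 and at least 3 confident reads to 1 repetitive read. The submitters' processing notes name CASAVA 1.8.1 and cutadapt. Which aligner was used, whether duplicates were removed and how heights were scaled is not given in the sources used here. For each peak the authors deposited a signal (the height in the Flk1(+) and in the ES profile), a ratio of these heights (the enrichment, with an ES height below 1 taken as 1), a −log10 q-value and a score that ranks the peaks. No column names a library, so each list was assigned to a genotype by its number of peaks as the paper states it. The study has 4 libraries for 4 conditions.

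Runs, shares, Wilson intervals and motif counts were computed with Python 3.11.15, pandas 2.3.3, NumPy 2.4.6 and SciPy 1.17.1, and figures with Matplotlib 3.10.9. The building of runs, the overlap of runs and the motif search were first tested on simulated data. The window of every peak in a run was identical to the mm9 sequence 250 bases to either side of its position. WGATAA was searched on both strands. Genes came from GENCODE vM1 on the same build, without 2 read-through models that each contained 10 or more coding genes, a choice made after seeing the data. The runs named are, per list, those with the most peaks, the largest summed height, the most peaks shared between lists, the most peaks without an other-list counterpart, and those near genes of 10 lists. For genes with several runs the largest was named, and others, and the runs near *Dnahc2*, were named after their values were seen, as were the windows between peaks. The members and the gene lists were chosen with earlier results of these data known. Alternatives varied the gap, merging, distal limit, rank, list size, run size, ES height, motif and gene distance. The sequence of 1 peak that the rule covers is not reported here.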

Additional observations from a re-analysis of the deposited data

How the results depend on the processing

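No paired analysis was possible because each condition had 1 library, and no library could be left out for the same reason. The number of runs (513 in WT and 406 in DKO) moved by over 1.5 times under rules that change what a run is. It was 299 in WT with a gap of 2.5 kb, and 782 and 626 with a gap of 10 kb. It was 257 and 190 when peaks up to 500 bp apart were merged first, 129 and 99 in the better-ranked 50% of the distal peaks, 150 and 129 with at least 4 peaks, and 7 and 29 when peaks with an ES height of 1 or more were left out. It was 310 in WT with equal numbers of distal peaks, and 1477 in DKO when no peak was set aside near gene starts. The share of runs that overlapped (20.5% and 26.1%) was 17.1% and 17.8% with a gap of 2.5 kb, 25.96% and 32.1% with a gap of 10 kb, 13.6% and 17.2% when the overlap had to cover at least 50% of both spans, 29.0% and 33.3% when 3 peaks had to match within 500 bp, and 75.6% and 73.4% when 1 match sufficed. With equal numbers of distal peaks it was 16.0% in DKO. The difference in motif share between runs and other distal peaks, in percentage points (-5.23 in WT and -14.97 in DKO), was -2.79 and -11.1 with WGATAR, -9.84 in WT in the central 200 bp, and -12.2 in DKO without peaks near GENCODE starts, an alternative chosen after seeing the data. With 1 peak per run it turned to 2.10 in WT and was -2.89 in DKO. The cause of these changes was not tested beyond the alternatives' own construction. Gene counts at 5 and 100 kb kept their direction. Every list holds only peaks above the caller's thresholds, and the reads behind each peak are not given in it.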
